A study of Mus musculus with 4 samples.

Results

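The immunoproteasome and the machinery that loads MHC class I were followed in single cells of mouse colon through 10 genes out of the 29897 listed in any library. The genes were taken by name and by their place in the pathway: the inducible catalytic subunits Psmb8, Psmb9 and Psmb10, the proteasome activator subunits Psme1 and Psme2, the peptide transporter genes Tap1 and Tap2, the loading chaperone Tapbp, the class I light chain B2m and the class I transactivator Nlrc5. They were chosen with earlier results of these data known. The shares of all genes set beside them below are therefore a description and no independent test. All 10 genes had counts in all 4 libraries.

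Nucleated cells cut worn or foreign proteins into peptides with the proteasome, and show some of these peptides on MHC class I molecules to CD8 T cells. Interferons, above all interferon gamma, raise the genes Psmb8, Psmb9 and Psmb10, whose products replace the constitutive catalytic subunits Psmb5, Psmb6 and Psmb7 and form the immunoproteasome. The transporter encoded by Tap1 and Tap2 moves peptides into the endoplasmic reticulum, where tapasin, the product of Tapbp, helps to fit them into class I heavy chains paired with beta 2 microglobulin. In the gut, the lining cells carry this machinery next to a dense population of immune cells.

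The comparison was between 2 colon libraries from mice given CCl4 and 2 control libraries. CCl4 (carbon tetrachloride) is a liver toxin used to injure the liver of rodents, and per the series' design text it was given for 6 weeks to specific-pathogen-free mice that were 6 weeks old at the start. For the control libraries the sources used here state no age, vehicle or duration. They also give no strain and no number of animals per library, and the liver was not measured. Tissue was digested enzymatically and its cells were barcoded in droplets, so every value below is a count of polyadenylated RNA from dissociated colon. With 2 libraries in a group, p-values measure the spread between libraries, which may be technical.

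After filtering, 10382 and 9791 cells remained in the CCl4 libraries and 8102 and 8244 in the control libraries, from totals of 92383719 and 74643979 against 55834301 and 58667918 deposited counts. The cells formed 24 clusters. Each was called by a cell type only where markers of that type led it, so a name such as colonocyte stands for colonocyte-like cells, and 2 clusters with 1534 cells stayed unnamed. Epithelial clusters in which no single epithelial type led are called undivided epithelial. Each library contributed 1 sum of counts per class, and the 12 classes holding 50 or more cells in all 4 libraries were tested. Colonocytes had 938 and 982 cells in the CCl4 libraries and 704 and 665 in the control libraries. The summed level of 9 colonocyte markers was 17313 and 16766 CPM (counts per 1000000 counts of the class) in CCl4 colonocytes and 18778 and 18163 CPM in control colonocytes. In the undivided epithelial class it was 1408 and 1484 CPM in CCl4 and 1476 and 1405 CPM in control libraries.

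A cluster of 4 of the genes lies in the class II region of the mouse MHC on chromosome 17 (GRCm38, GENCODE M21). Psmb9 is at chr17:34181987-34187764 on the minus strand, followed on the plus strand by Tap1 at chr17:34187553-34197225, Psmb8 at chr17:34197721-34201454 and Tap2 at chr17:34203527-34216321, and Tapbp lies nearby at chr17:33915899-33929292. Psme1 and Psme2 are neighbours on chromosome 14, B2m is on chromosome 2, and Psmb10 and Nlrc5 are on chromosome 8. Psmb9 and Tap1 are read in opposite directions, their RefSeq first bases stand 225 bases apart, and their annotated spans share 212 bases. The sources used here do not say whether counting used the strand, so reads from these shared bases cannot be assigned to one gene with certainty.

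Upstream sequence from RefSeq (GRCm38.p6) was found for 8 of the 10 genes, all but Tap2 and Nlrc5. The 250 bases before each start were searched on both strands for GAAA followed by any 2 bases and GAAA again, the core of the interferon-stimulated response element bound by IRF factors, and for TTC followed by any 3 bases and GAA, the gamma-activated site of interferon gamma targets. Of these 8 genes, B2m alone held the first, with its first base 139 bases before the start, and Psmb8 alone held the second, 97 bases before the start. Among 32851 windows of that length, 2.98% held the first set of letters, 7.02% the second and 0.332% both. The upstream stretches are shown for B2m, which was called in no class, and for Psmb10 and Psme2, which were called lower in CCl4 colonocytes and undivided epithelial cells, as far as they lie outside annotated exons. They span chr2:122147437-122147685 on the plus strand, chr8:105938445-105938642 on the minus strand and chr14:55591114-55591351 on the minus strand. For Psmb8, the gene with the deepest fall, 30 bases around the match are shown (chr17:34198088-34198117, plus strand), which lie within an exon of an annotated transcript. Capitals mark the matched letters, and a match or its lack describes these letters alone.
B2m: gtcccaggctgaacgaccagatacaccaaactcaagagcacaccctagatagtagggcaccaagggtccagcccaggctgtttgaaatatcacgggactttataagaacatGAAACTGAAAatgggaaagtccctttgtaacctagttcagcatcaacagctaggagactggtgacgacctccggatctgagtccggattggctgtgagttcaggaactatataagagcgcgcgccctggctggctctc
Psmb10: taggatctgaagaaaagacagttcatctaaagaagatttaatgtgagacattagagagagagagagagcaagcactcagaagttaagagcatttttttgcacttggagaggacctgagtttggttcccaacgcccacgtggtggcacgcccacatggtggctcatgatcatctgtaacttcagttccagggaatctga
Psme2: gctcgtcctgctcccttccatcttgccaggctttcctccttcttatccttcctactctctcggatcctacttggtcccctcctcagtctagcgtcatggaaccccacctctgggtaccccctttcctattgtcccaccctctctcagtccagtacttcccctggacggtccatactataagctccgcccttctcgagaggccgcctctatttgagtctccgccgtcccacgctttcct
Psmb8: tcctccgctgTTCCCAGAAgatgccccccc

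Across cell types the genes did not follow one order. The orders given here cover the 12 tested classes and 1 unnamed cluster, all with 20 or more cells in each of the 4 libraries. Psmb8, which supplies the chymotrypsin-like site of the immunoproteasome, had its highest mean over the 4 libraries, 837 CPM, in an unnamed cluster of 603 cells led by the class II genes H2-Ab1, H2-Aa and Cd74. It had 369 CPM in macrophages and monocytes, 364 in plasma cells, 338 in endothelial cells, 266 in T cells, 200.02 in B cells, 159 in glia and 129.5 in lymphatic endothelial cells. Lower still were fibroblasts at 90.7, colonocytes at 74.3, smooth muscle at 71.9, undivided epithelial cells at 52.3 and goblet cells at 19.6 CPM. Between the unnamed cluster and the next group the library ranges did not overlap, and all other neighbours in this order overlapped. Psmb9 had 367 CPM in the same unnamed cluster, 166 in endothelial cells and 12.5 in goblet cells, the lowest of all.

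Psmb10 had another order, with its highest mean in colonocytes, 345 CPM, then 239.8 in undivided epithelial cells and 215 in endothelial cells, and its lowest in B cells, 90.3 CPM. The activator gene Psme2 likewise had 529 CPM in colonocytes, next to 552 in the unnamed cluster, and 184 in goblet cells, and Psme1 lay between 376 CPM in the unnamed cluster and 75.0 in plasma cells. The transporter genes were low in the epithelium. Tap1 had 46.3 CPM in endothelial cells and 13.5 in colonocytes, and Tap2 had 184 CPM in endothelial cells, 20.2 in colonocytes and 9.36 in undivided epithelial cells. Tapbp lay between 187 CPM in endothelial cells and 32.2 in undivided epithelial cells. B2m was highest in T cells at 4311 CPM, clear of plasma cells at 3686, and among these groups lowest in colonocytes at 634, goblet cells at 348 and undivided epithelial cells at 268 CPM, each step of these last ones without overlap. Nlrc5, whose product switches on class I genes, had 26.8 CPM in T cells and 0.699 CPM in goblet cells, the highest and lowest of these groups. Outside these orders, the other unnamed cluster, with 931 cells but under 20 in 1 control library, had 53.4 and 43.1 CPM of Nlrc5 in CCl4 cells and 15.9 CPM in the other control library, from 12 and 63 against 8 counts. Its B2m level was 142 and 85.5 against 161 CPM, and that of the few enteroendocrine cells 136 and 138 against 142 CPM, both lower than in undivided epithelial cells.

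**Figure D1:**
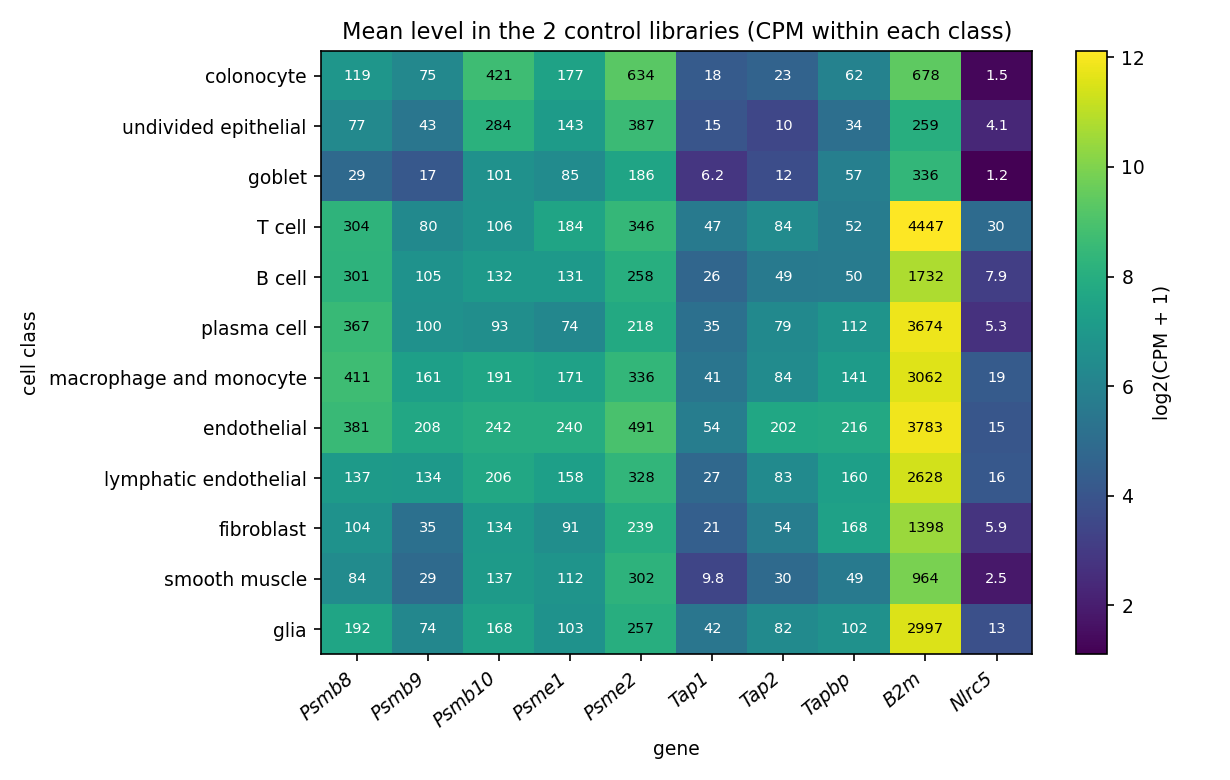
Mean level of each gene (columns) in each of the 12 cell classes (rows) over the 2 control libraries, in CPM within the class, with colour on a log2(CPM + 1) scale. B2m is lower in each of the 3 epithelial classes than in the other 9, while Psmb10 and Psme2 have their highest level of the 12 classes in colonocytes.

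Between CCl4 and control libraries, the genes were lower in CCl4 wherever they passed the test. Of 114 tests of a gene in a class, 16 were called lower in CCl4 and 0 higher (edgeR quasi-likelihood test, Benjamini-Hochberg adjusted p under 0.05 over all genes of the class). DESeq2 also called 0 higher, and at an unadjusted p under 0.05 edgeR gave 48 lower and 1 higher. Over the 12 classes together, 0.848% of all gene tests were called higher. At an unadjusted p under 0.05, counted in either direction, 1710 of 13319 genes passed in colonocytes and 2217 of 14874 in undivided epithelial cells. In goblet cells 1553 of 12451 passed and in endothelial cells 1659 of 12857. In fibroblasts 1878 of 15545 passed and in macrophages and monocytes 1178 of 11000. The fitted change was negative in 108 of the 114 tests. The share of negative changes over all genes was not counted, and their median log2 change lay between -0.0088 and 0.0061 over the classes. The 114 tests share 4 libraries and genes whose levels ran alike, so they are not separate results. Colonocytes held 6 of the 16 calls, undivided epithelial cells 5, endothelial cells 2, and goblet cells, fibroblasts and macrophages 1 each. The other 6 combinations of a gene and a class, Nlrc5 in B, goblet, lymphatic endothelial and smooth muscle cells and Tap1 in B and lymphatic endothelial cells, had too few counts to be tested.

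**Figure D2:**
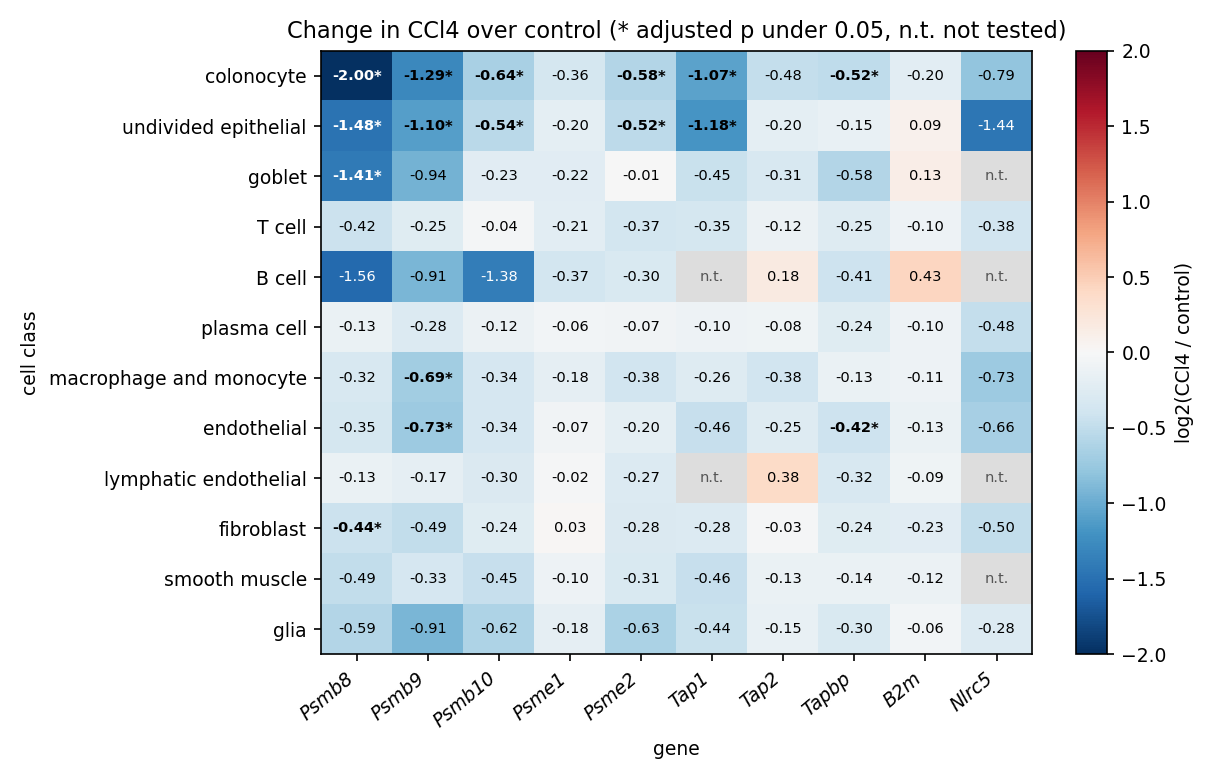
Fitted log2 change in CCl4 over control of each gene (columns) in each cell class (rows), blue for lower in CCl4 and red for higher, with stars at an adjusted p under 0.05 and grey with n.t. where too few counts allowed no test. The deepest value is -2.0 for Psmb8 in colonocytes, and 11 of the 16 stars lie in the colonocyte and undivided epithelial rows.

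Psmb8 in colonocytes, which absorb water and salt, showed the deepest fall of the 10 genes. It had 28.9 and 30.6 normalised CPM in CCl4 colonocytes, against 119 and 119 in control colonocytes, from 348 and 365 against 909 and 970 counts. Both CCl4 libraries lay far below both control libraries, and the fit put Psmb8 at 24.9% of the control level (log2 change -2.0, SE 0.10, adjusted p = 5.72e-10). Psmb9, the subunit that replaces Psmb6, had 34.0 and 27.7 CPM in CCl4 colonocytes and 77.4 and 73.2 CPM in control colonocytes, and fell to 41.0% (log2 change -1.29, SE 0.11, adjusted p = 1.97e-06). Psmb10, the subunit that replaces Psmb7, fell less, to 64.0% of the control level, with 283 and 258 against 436 and 409 CPM (log2 change -0.64, SE 0.09, adjusted p = 0.000363). In all 3 genes the groups did not overlap.

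**Figure D3:**
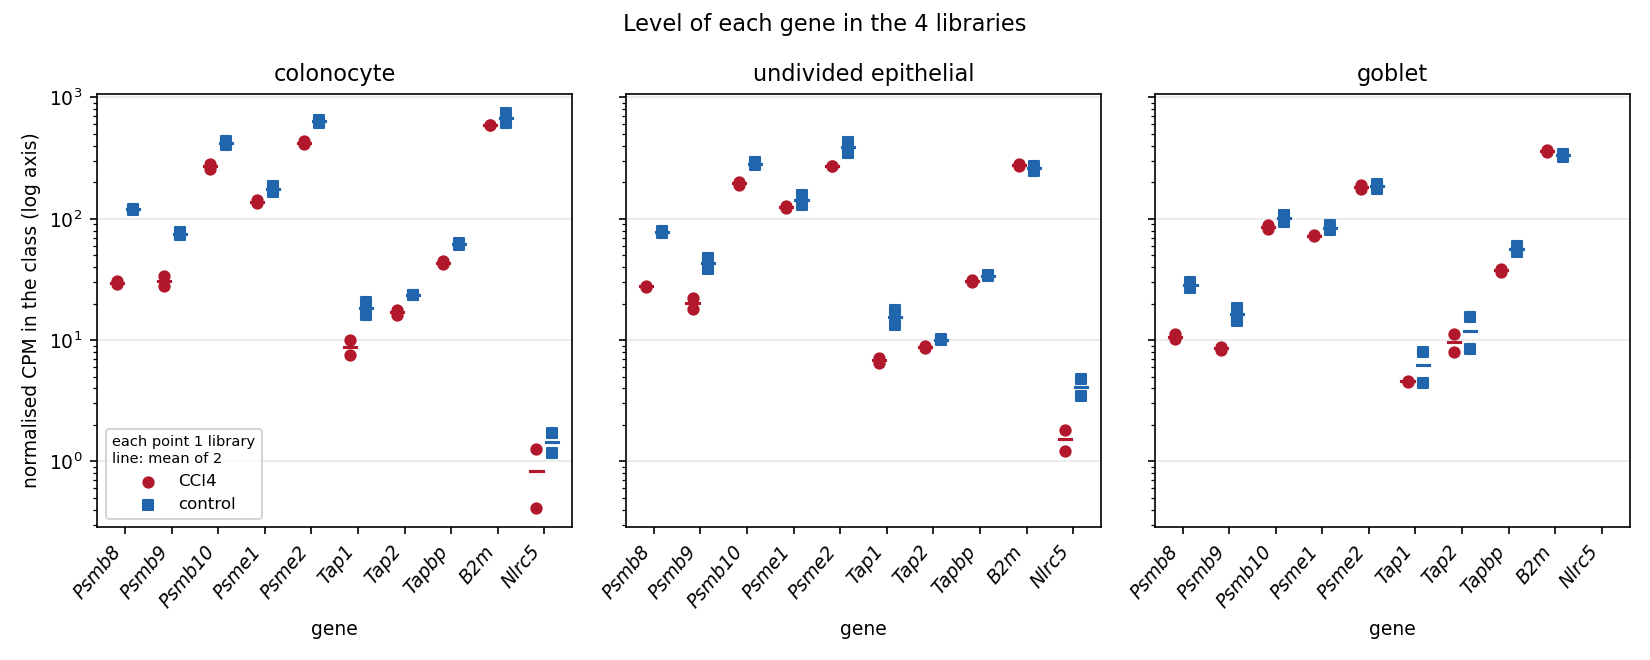
Level of each gene in the 4 libraries for the 3 epithelial classes, in normalised CPM of the class on a log axis, with CCl4 libraries as red circles, control libraries as blue squares and a line at the mean of 2. In colonocytes Psmb8 sits at 28.9 and 30.6 CPM in CCl4 against 119 and 119 CPM in control libraries. The B2m groups lie nearer each other and B2m was called in none of the 3 classes. Its CCl4 points lie below control in colonocytes and above in goblet cells, and the groups overlap in undivided epithelial cells.

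The activator and the loading genes of colonocytes moved in part. Psme2, which with Psme1 forms the PA28 ring that opens the proteasome, had 411 and 439 CPM in CCl4 colonocytes and 656 and 616 CPM in control colonocytes and fell (log2 change -0.58, SE 0.08, adjusted p = 0.000709). Psme1 had 135 and 143 against 187 and 168 CPM and did not pass (log2 change -0.36, adjusted p = 0.0572). Tap1 fell to 7.56 and 9.97 CPM in CCl4 colonocytes, against 20.6 and 16.2 CPM in control colonocytes (log2 change -1.07, SE 0.19, adjusted p = 0.00625). Its partner Tap2 had 16.0 and 17.8 against 23.4 and 23.7 CPM and did not pass (log2 change -0.48, adjusted p = 0.135). Tapbp had 44.5 and 42.7 CPM in CCl4 colonocytes and 60.9 and 63.7 CPM in control colonocytes and fell (log2 change -0.52, SE 0.10, adjusted p = 0.0104). B2m, the light chain of every class I molecule, had 594 and 588 against 742 and 620.0 CPM and did not pass (log2 change -0.20, adjusted p = 0.346). Nlrc5 rested on 5 and 15 against 9 and 14 counts, too few to show a difference. Thus 6 of 10 genes were called lower in colonocytes, where 0.706% of 13319 genes were, and 9 of 10 had both CCl4 libraries below both control libraries, against 20.7% of all genes tested. The median log2 change of the 10 genes was -0.61 and that of all genes 0.00.

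The colonocyte calls moved with single control libraries. Without control library 1, the fall of Psmb8 was as large (log2 change -1.99) but its adjusted p was 0.473, and none of the 10 genes was called. Without control library 2, Psme2, Tap1 and Tapbp were lost and 3 genes were called, and without the filter on low counts Psmb8 alone was.

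The undivided epithelial class, with 2245 and 1925 CCl4 cells and 862 and 869 control cells, showed the same genes except Tapbp. Psmb8 had 27.4 and 28.0 CPM in CCl4 cells and 78.6 and 76.2 CPM in control cells (log2 change -1.48, SE 0.11, adjusted p = 2.57e-06). Tap1 had 6.49 and 7.13 against 13.2 and 17.6 CPM (log2 change -1.18, SE 0.24, adjusted p = 0.0196), and Psmb9 18.03 and 22.1 against 47.2 and 38.6 CPM (log2 change -1.10, SE 0.15, adjusted p = 0.00125). Psmb10 and Psme2 fell by 0.54 and 0.52 on the log2 scale (adjusted p = 0.00693 and 0.0164). B2m had 282 and 273 CPM in CCl4 cells and 274 and 247 CPM in control cells, with overlapping groups (log2 change 0.09, adjusted p = 0.701). The class joins 2 clusters in unequal shares, the smaller one giving 387 of 2245 and 337 of 1925 cells in CCl4 and 95 of 862 and 67 of 869 cells in control libraries, and B2m was higher in the smaller one. Within the larger cluster B2m had a log2 change of -0.10 and within the smaller one of -0.13, neither passing (adjusted p = 0.802 and 0.771). Here 5 of 10 genes were called lower, against 0.551% of 14874 genes, and 9 of 10 lay below without overlap, against 21.9% of all genes. Leaving out either CCl4 library left 3 calls: Psme2 and Tap1 were lost without CCl4 library 1, and Psmb10 and Psme2 without CCl4 library 2. Fitting the 2 clusters one by one was a choice made after seeing the data, and Psmb8 fell in both, by 1.57 on the log2 scale in the larger and 1.32 in the smaller (adjusted p = 2.72e-07 and 0.0241), with 4 and 2 of the 10 genes called.

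In goblet cells, which secrete mucin, Psmb8 was the 1 gene called of 9 tested, where 0.153% of 12451 genes were called lower. It had 11.2 and 10.2 CPM in CCl4 goblet cells and 26.8 and 30.02 CPM in control goblet cells (log2 change -1.41, SE 0.19, adjusted p = 0.00555). Psmb9 had 8.24 and 8.83 against 18.4 and 14.5 CPM (log2 change -0.94, adjusted p = 0.121) and Tapbp 36.7 and 38.6 against 53.2 and 59.2 CPM (log2 change -0.58, adjusted p = 0.0663), neither passing despite groups that did not overlap. Of the 9 genes, 5 lay below without overlap, against 21.7% of all genes, and B2m lay above, with 358 and 372 against 344 and 323 CPM (log2 change 0.13, adjusted p = 0.551). With every cell thinned to 1000 counts the Psmb8 change in goblet cells was -0.80 and did not pass (adjusted p = 0.715).

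The lower Psmb8 level was present in every finer division of the colonocyte and undivided epithelial cells. Clustering at a finer resolution gave 3 colonocyte and 3 undivided epithelial clusters. Psmb8 lay between 27.3 and 34.6 CPM in the CCl4 libraries and between 84.9 and 134 CPM in the control libraries over the colonocyte clusters (plain CPM), and between 21.8 and 30.3 CPM against 57.8 and 117 CPM over the undivided ones. In each of these 6 clusters both CCl4 libraries lay below both control libraries for Psmb8, Psmb9, Psmb10, Tap1 and Psme2. B2m did so in 3 of 3 undivided epithelial clusters and in 1 of 3 colonocyte clusters. The share of all genes that did so in these clusters was not counted.

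Several other measures moved with the epithelial results, and their part in them was not tested. The summed level of 7 plasma cell markers, mostly immunoglobulin, was 519 and 455 CPM in CCl4 colonocytes and 767 and 763 CPM in control colonocytes, and 469 and 454 against 1014 and 962 CPM in undivided epithelial cells. In goblet cells it was 601 and 1038 against 848 and 908 CPM, with overlapping groups. Goblet cell markers summed to 179.7 and 162 CPM in CCl4 colonocytes and 63.9 and 75.1 CPM in control colonocytes, and crypt stem cell markers to 374 and 364 against 274 and 278 CPM in undivided epithelial cells. The 5 erythroid markers summed to 34.0 and 205 against 12.7 and 10.2 CPM in colonocytes, 978 and 355 against 20.7 and 23.7 CPM in undivided epithelial cells and 674 and 202 against 5.37 and 9.67 CPM in goblet cells. In contrast, 37 markers of T, natural killer, innate lymphoid, B, macrophage and dendritic cells summed to 54.1 and 52.1 CPM in CCl4 colonocytes and 52.7 and 48.2 CPM in control colonocytes, with Ncr1 and Clec9a at 0 in all libraries. The same markers summed to 68.1 and 74.5 against 64.4 and 82.8 CPM in undivided epithelial cells and to 47.5 and 52.1 against 36.4 and 58.0 CPM in goblet cells, overlapping in both. Psmb8 had 9.41 and 8.49 counts for each count of the leukocyte gene Ptprc in CCl4 colonocytes and 53.5 and 88.2 in control colonocytes, where Ptprc had 37 and 43 against 17 and 11 counts. In undivided epithelial cells this ratio was 5.12 and 4.78 in CCl4 and 11 and 11.5 in control libraries. In T cells it was 0.288 and 0.311 in CCl4 and 0.376 and 0.377 in control libraries. For each count of the T, B, plasma, macrophage and dendritic markers together, leaving out Xbp1, Psmb8 had 0.0564 and 0.0718 counts in CCl4 colonocytes and 0.157 and 0.166 in control colonocytes, and 0.0566 and 0.0619 against 0.0768 and 0.0784 in undivided epithelial cells. In plasma cells that ratio was 0.00122 and 0.0012 in CCl4 and 0.00102 and 0.00108 in control libraries. For each count of the class II gene Cd74, Psmb8 had 2.58 and 2.40 counts in CCl4 colonocytes and 4.11 and 2.97 in control colonocytes. The ratio to Cd74 in undivided epithelial cells was 1.75 and 2.0 in CCl4 and 2.65 and 2.48 in control libraries. By their own tests, Cd74 and Psmb8 were each called lower in CCl4 in both classes. Mitochondrial genes took a median of 16.5% and 15.6% in CCl4 and 15.9% and 15.7% in control libraries of the counts of a colonocyte, and its median depth was 10292 and 8872 against 8532 and 9457 counts. The mitochondrial share was higher in CCl4 without overlap in undivided epithelial cells, at 16.0% and 15.6% against 14.1% and 14.4%, and in goblet cells, at 7.98% and 7.45% against 5.94% and 6.13%.

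Outside the epithelium 4 falls were called, between -0.42 and -0.73 on the log2 scale. As in colonocytes, 9 of 10 genes lay below in CCl4 without overlap in fibroblasts and in macrophages and monocytes. In endothelial cells 8 of 10 did. Of all genes, 20.4% did so in fibroblasts, 19.9% in macrophages and monocytes and 21% in endothelial cells. In endothelial cells, Psmb9 had 129.7 and 120.4 CPM in CCl4 libraries and 217 and 199 CPM in control libraries (log2 change -0.73, SE 0.10, adjusted p = 0.000989) and Tapbp had 169 and 153 against 225 and 206 CPM (log2 change -0.42, SE 0.10, adjusted p = 0.0428), 2 of 10 genes where 0.513% of all genes were called lower. Tapbp was no longer called without CCl4 library 1, CCl4 library 2 or control library 1, or with DESeq2. In macrophages and monocytes, Psmb9 had 89.5 and 111 against 164 and 159 CPM (log2 change -0.69, SE 0.13, adjusted p = 0.00852), 1 of 10 genes against 0.345%. In fibroblasts, Psmb8 had 71.7 and 83.0 against 106 and 103 CPM (log2 change -0.44, SE 0.09, adjusted p = 0.0279), 1 of 10 genes against 0.553%. Both of these calls were lost without CCl4 library 1 (adjusted p = 0.129 for Psmb9 in macrophages and 0.303 for Psmb8 in fibroblasts). Markers of other cell types moved with these calls, and their part in them was not tested. In endothelial cells 6 mural markers summed to 1785 and 1689 CPM in CCl4 and 248.8 and 867 CPM in control libraries, and 7 endothelial markers to 8434 and 8298 against 10514 and 10074 CPM, each of the 7 lower in CCl4. In fibroblasts 7 plasma cell markers summed to 497 and 454 against 1078 and 1067 CPM, 7 epithelial markers to 666 and 741 against 294 and 293 CPM and 5 erythroid markers to 401 and 576 against 39.1 and 31.1 CPM. In macrophages and monocytes the epithelial markers summed to 778 and 856 against 427 and 371 CPM.

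No gene passed in T cells, B cells, plasma cells, lymphatic endothelial cells, smooth muscle or glia, where edgeR and DESeq2 each called 0 of 55 tests. By edgeR 11 were lower and 1 higher at an unadjusted p under 0.05. At that threshold, in either direction, 1021 of 11868 of all genes passed in T cells, 404 of 4583 in B cells and 1422 of 11216 in plasma cells. In lymphatic endothelial cells 360 of 5188 passed, in smooth muscle 1392 of 10720 and in glia 757 of 9176. Of all genes, 0.211% were called lower in T cells, 0.0218% in B cells, 0.508% in plasma cells, 0.0193% in lymphatic endothelial cells, 0.681% in smooth muscle and 0.207% in glia. Without overlap, 7 of 10 genes lay below in CCl4 T cells, 6 of 10 in glia and 4 of 10 in plasma cells. It was 3 of 9 in smooth muscle, 3 of 8 in B cells and 2 of 8 in lymphatic endothelial cells. Of all genes, 18.9%, 18.7%, 21.9%, 21.5%, 20.1% and 18.5% did so in these classes, in that order. B2m lay above in B cells. Psmb8 had 218 and 241 CPM in CCl4 T cells and 316 and 299 CPM in control T cells (log2 change -0.42, adjusted p = 0.22), and 355 and 342 against 399 and 367 CPM in plasma cells (log2 change -0.13, adjusted p = 0.674). In B cells, with 53 to 176 cells in a library, it had 110.4 and 109.7 against 209 and 450.5 CPM (log2 change -1.56, SE 0.36, adjusted p = 0.18), with control libraries far apart. Leaving out control library 2 raised the calls in the classes other than the 3 epithelial ones to 13, against 4 with all libraries.

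The balance between each inducible subunit and the constitutive one it replaces does not depend on scaling between libraries. It is given as a share of the counts of the pair, which is no share of protein. Psmb8 made up 14.6% and 14.9% of the Psmb8 and Psmb5 counts in CCl4 colonocytes, against 37.8% and 40.6% in control colonocytes (exact 95% binomial intervals 13.2 to 16.1 and 13.5 to 16.4 against 35.9 to 39.8 and 38.6 to 42.6, covering counting error only). The share was 13.5% and 13.4% in CCl4 and 26.1% and 30.8% in control undivided epithelial cells, and 5.76% and 4.6% against 12.3% and 13.2% in goblet cells. In T cells it was 73.4% and 73.5% against 73.9% and 77.8%.

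Psmb9 held 13.4% and 11.3% of its pair with Psmb6 in CCl4 colonocytes and 24% and 24.4% in control colonocytes, and Psmb10 held 65.7% and 61.7% of its pair with Psmb7 against 73.2% and 72.9%. Both CCl4 libraries lay below both control libraries in 8 of 12 classes for Psmb8, 6 for Psmb9 and 9 for Psmb10, and above in 0. The exact two-sided permutation test gave p = 0.333 for each of these 23 cases, the smallest p that 2 libraries against 2 can give. The share of all gene pairs lying below without overlap was not counted, and the 12 classes come from the same 4 libraries. None of the constitutive subunits was called in an epithelial class. Psmb5, with the smallest p of them, had 175 and 180.4 CPM in CCl4 undivided epithelial cells and 222 and 171 CPM in control ones (log2 change -0.15, adjusted p = 0.59).

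**Figure D4:**
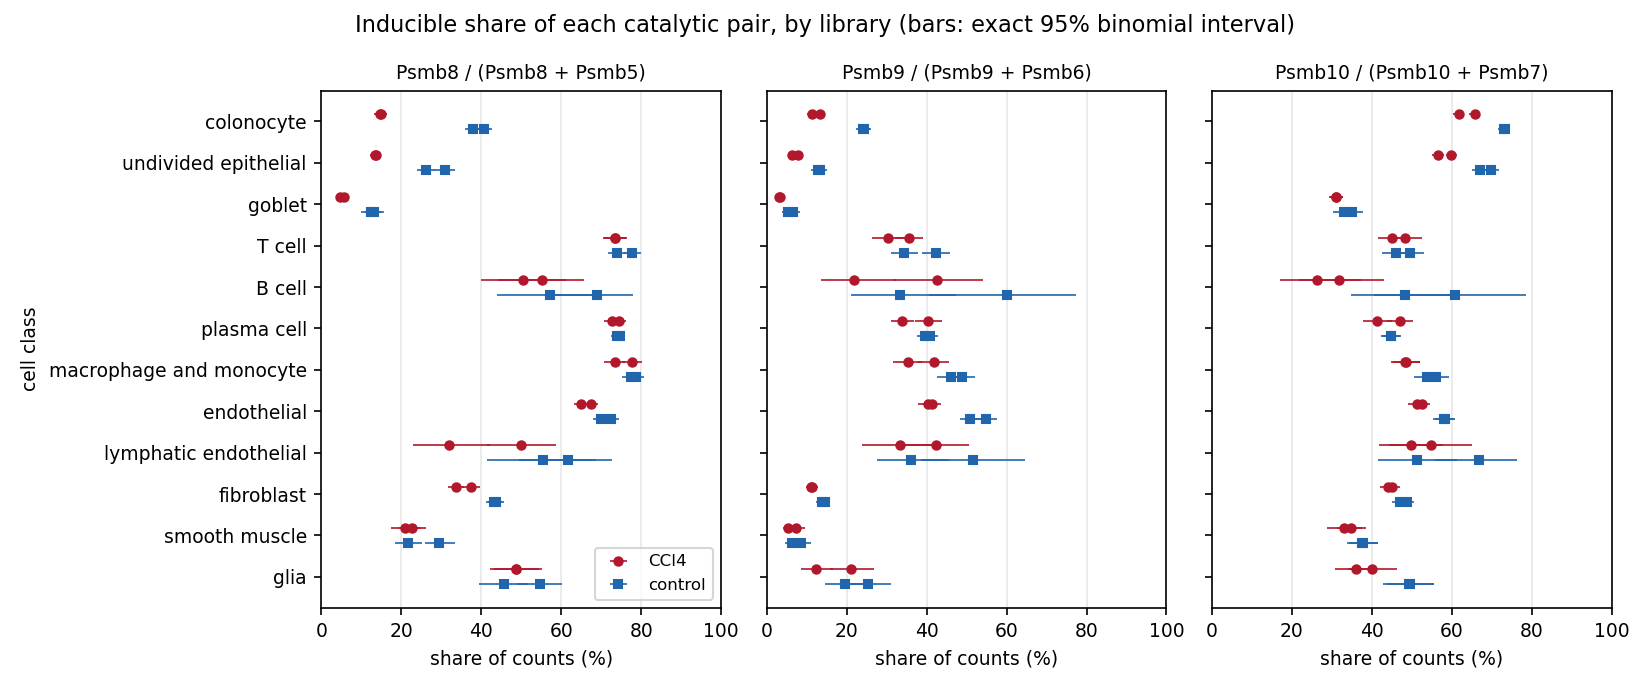
Share of the counts of each pair that comes from the inducible subunit (horizontal, in %) in the 12 cell classes (vertical), with 1 point per library, CCl4 as red circles above and control as blue squares below, and exact 95% binomial intervals. In colonocytes the Psmb8 share is 14.6% and 14.9% in CCl4 against 37.8% and 40.6% in control libraries, while in T cells it is 73.4% and 73.5% against 73.9% and 77.8%.

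Whether the fall was deeper in colonocytes than elsewhere was tested directly, as the difference between 2 classes in the log2 change with library as a block. The Psmb8 change was more negative in colonocytes than in T cells by 1.53 (SE 0.14, adjusted p = 1.95e-09), than in plasma cells by 1.84 (SE 0.11, adjusted p = 1.47e-10) and than in macrophages by 1.72 (SE 0.14, adjusted p = 6.78e-10), as differences of log2 changes. It also passed against endothelial, lymphatic endothelial, fibroblast, smooth muscle and glial cells, 8 of 11 classes in all. It did not pass against undivided epithelial cells (difference -0.53, SE 0.14, adjusted p = 0.0788), goblet cells (-0.58, SE 0.19, adjusted p = 0.184) or B cells (-0.67, SE 0.41, adjusted p = 0.921). Leaving out 1 library gave 6 to 9 such classes. For Psmb9 the difference passed against T cells, plasma cells and fibroblasts, and for Psmb10 against the same 3 classes.

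Of 110 such tests over the 10 genes and 11 classes, 17 were called more negative in colonocytes and 0 less negative by edgeR, with 0 less negative at an unadjusted p under 0.05. DESeq2 was not run on these differences. The Psme2 change was more negative in colonocytes than in goblet and plasma cells, and B2m passed against undivided epithelial cells (difference -0.30, adjusted p = 0.0227) although it passed in neither class alone. That difference rests on the pooled change of 0.09 in undivided epithelial cells, against -0.10 and -0.13 within the 2 clusters of that class, whose shares differed between the groups. Among all genes, a more negative change in colonocytes was called for 1.34% against T cells, 0.0683% against B cells, 2.21% against plasma cells, 1.22% against macrophages, 1.18% against endothelial cells and 0.276% against lymphatic endothelial cells. It was called for 1.77% against fibroblasts, 1.11% against smooth muscle, 0.47% against glia, 0.609% against goblet cells and 0.599% against undivided epithelial cells. A less negative change was called for 0.0149% of all genes against lymphatic endothelial cells to 0.679% against goblet cells, with the other classes between. Having 0 called less negative therefore does not set the 10 genes apart. The share of all genes less negative at an unadjusted p under 0.05 was not counted.

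**Figure D5:**
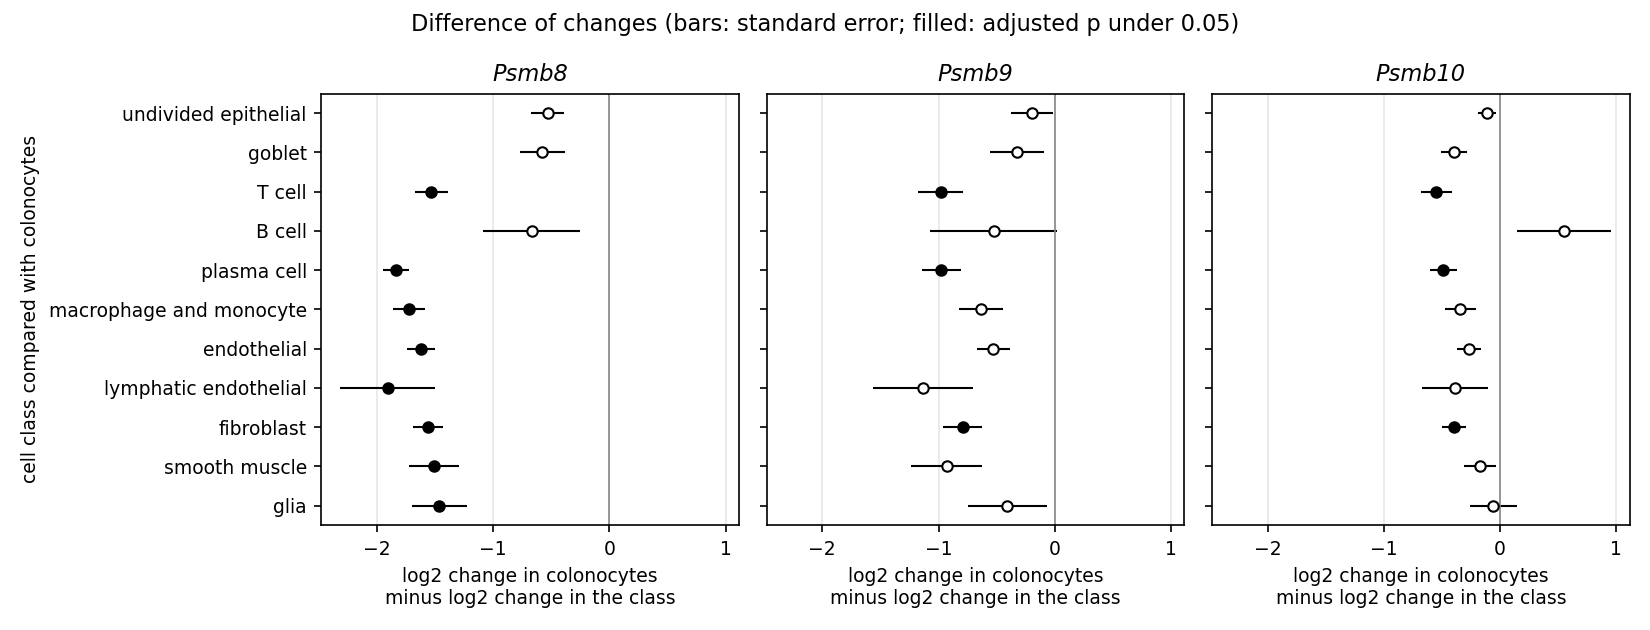
Log2 change of Psmb8, Psmb9 and Psmb10 in colonocytes minus that in each other cell class (horizontal), with bars of 1 standard error and filled points at an adjusted p under 0.05. For Psmb8, 8 of 11 points are filled and lie between -1.46 and -1.91, and the points for undivided epithelial, goblet and B cells are open.

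Among the genes around the 10, called members in the epithelium belonged to 4 lists. In colonocytes, 0 of 14 other core subunits and assembly factors of the proteasome and 0 of 19 regulatory particle subunits and other activators were called, with median log2 changes of -0.04 and -0.04, where 0.706% of all genes were called lower. Over the 3 epithelial classes, the 4 lists without a call made 113 tests, of which edgeR gave 14 lower and 2 higher at an unadjusted p under 0.05. Over all genes and in either direction, 1710 of 13319 in colonocytes and 2217 of 14874 in undivided epithelial cells were under that threshold. In goblet cells 1553 of 12451 were. These totals were not split by direction, so the 14 lower and the 2 higher have no share of all genes beside them. Whether these lists lean lower more than all genes do was not tested, and having 0 calls does not set them apart. DESeq2 was not counted over these lists. Among the members with the smallest p of these lists, the assembly factor Pomp had 164 and 145 CPM in CCl4 colonocytes and 184 and 179 CPM in control colonocytes (log2 change -0.23, adjusted p = 0.256), and the regulatory subunit Psmd11 59.4 and 53.7 against 71.3 and 77.5 CPM in goblet cells (log2 change -0.39, adjusted p = 0.173).

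Of 5 loading chaperones and trimming genes, Tapbpl, whose product edits the peptides of class I molecules, was called, with 27.7 and 26.9 CPM in CCl4 colonocytes and 44.5 and 46.0 CPM in control colonocytes (log2 change -0.73, SE 0.11, adjusted p = 0.00139). It was also called in undivided epithelial cells (log2 change -0.65, adjusted p = 0.0401). Of 12 class I heavy chain genes tested in colonocytes, H2-Q2 was called, with 36.6 and 41.8 against 52.4 and 54.6 CPM (log2 change -0.45, adjusted p = 0.0413), and the median of the 12 was -0.20. H2-Q genes are near copies of each other, so the counts of 1 of them are uncertain.

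Of 18 regulators, the interferon-induced factor Irf1 was called in colonocytes, with 110.1 and 108 CPM in CCl4 and 162 and 131 CPM in control libraries (log2 change -0.42, SE 0.10, adjusted p = 0.04). Of 5 class II genes, Cd74, the invariant chain, had 11.2 and 12.7 CPM in CCl4 colonocytes and 29.03 and 40.2 CPM in control colonocytes (log2 change -1.53, SE 0.17, adjusted p = 2.84e-05), and H2-Ab1 had 8.81 and 10.8 against 21.02 and 30.6 CPM (log2 change -1.40, adjusted p = 0.000404). In colonocytes 4 of the 5 class II genes lay below in CCl4 without overlap, against 20.7% of all genes. The size of the change differed between the 5, and their median of -1.40 is the value of H2-Ab1 itself. H2-Aa and H2-Eb1 had log2 changes of -0.21 and -0.15 and did not pass (adjusted p = 0.776 and 0.865). Ciita had -1.76 from 9 and 9 against 12 and 29 counts and did not pass (adjusted p = 0.18). Cd74 and H2-Ab1 were also called lower in undivided epithelial cells, by 1.02 and 0.79 on the log2 scale (adjusted p = 0.0035 and 0.0357).

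Of 5 interferon and TNF ligand genes, at most 2 were abundant enough to be tested in an epithelial class and 0 were called there. Ifng had 1.18 and 1.97 CPM in CCl4 goblet cells and 2.08 and 10.6 CPM in control goblet cells, from 14 and 19 against 7 and 39 counts (adjusted p = 0.223). The ligand genes Ifng and Ifnb1 were called elsewhere and are named after their values were seen. Ifng, the gene of interferon gamma, had 745 and 662 CPM in CCl4 T cells and 1261 and 1036 CPM in control T cells (log2 change -0.71, SE 0.12, adjusted p = 0.0203). Ifnb1, the gene of interferon beta, had 64.3 and 40.8 CPM in CCl4 macrophages and monocytes, against 13.4 and 10.1 CPM in control ones (log2 change 2.17, SE 0.28, adjusted p = 1e-04).

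The genes differed in how alike their levels ran over the 48 sums of a class and a library, a description over sums that share libraries and depth. Pearson's r on log2(CPM + 10) was 0.91 between Tap2 and B2m, 0.88 between Psmb8 and Tap1, 0.87 between Psmb8 and Psmb9 and 0.81 between Psme1 and Psme2. Psmb10 ran with Psme2 at 0.81 and not with Psmb8 (0.04) or B2m (-0.24). Among 7039 genes that averaged 20 CPM or more, the genes most like Psmb8 were Ier5, Tap1, Psmb9, B2m and Patl2, with r between 0.88 and 0.85. Those most like Tap1 were Psmb8, Patl2, B2m, Tsc22d3 and Ier5 (0.88 to 0.79), and those most like B2m were Patl2, Tap2, Fxyd5, H2-D1 and Ggta1 (0.99 to 0.87). Patl2 spans chr2:122120108-122186189 on the minus strand, and all 5398 bases of B2m lie within that span on the other strand, so shared reads cannot be told apart from a shared pattern.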

How the data were processed

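Single-cell RNA counts of mouse colon were analysed in 2 CCl4 and 2 control libraries. The deposited values are whole-number counts per gene and cell barcode, made with PISA v0.12b per the file headers, on GRCm38 per the submitters' processing notes; the aligner and the treatment of strand are not given in the sources used here. Barcodes under 200 genes or over 25% mitochondrial counts were dropped, leaving 38852, and the 6% of each library with the highest scrublet doublet score were removed (36519 left). Cells were clustered with scanpy 1.11.5 and leidenalg 0.10.2 (2000 variable genes, none of them among the 10 genes described, 30 principal components, resolution 1.0) and named by fixed markers, with scoring details chosen after seeing the data. Barcode names are numbered within each library, so that pairs of libraries share 8191 to 10738 names, and 0 profiles were identical across libraries.

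Counts were summed per class and library (155398 to 14375564 counts) and tested with edgeR 4.0.16 (R 4.3.3; TMM scaling, filterByExpr, quasi-likelihood F test on treatment alone, n = 2 libraries per group), with Benjamini-Hochberg adjustment over all genes of a class. The difference between colonocytes and another class was tested as an interaction with library as a block. Normalised CPM in comparisons use TMM scaling, while levels across classes use plain CPM. An SE is the log2 change divided by the square root of F. The fits were tested on simulated data. Alternatives were DESeq2 1.42.0, other scaling, filters, cells and clusterings, thinning, leaving out each library and a replicate block. Named were all 10 genes and, from each surrounding list, every gene called in an epithelial class or, where there was none, the gene with the smallest p, together with the 5 genes most like Psmb8, Tap1 and B2m. The genes and lists were chosen with earlier results of these data known. The values of 1 gene of the surrounding lists are not reported here. Levels of different genes are not compared, since counts are not scaled by length.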

Additional observations from a re-analysis of the deposited data

Results flagged for a closer look

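A log2 change that differed between colonocytes and another class by a direct test is listed here, as the change in colonocytes minus the change in the other class, each with an edgeR adjusted p under 0.05. For Psmb8 the difference was -1.53 against T cells, -1.84 against plasma cells, -1.72 against macrophages and monocytes, -1.63 against endothelial cells and -1.91 against lymphatic endothelial cells. It was -1.56 against fibroblasts, -1.51 against smooth muscle and -1.46 against glia. For Psmb9 it was -0.98 against T cells, -0.98 against plasma cells and -0.79 against fibroblasts. For Psmb10 it was -0.55 against T cells, -0.49 against plasma cells and -0.40 against fibroblasts. For Psme2 it was -0.56 against goblet cells and -0.48 against plasma cells, and for B2m -0.30 against undivided epithelial cells.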

How the results depend on the processing

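None of the 16 called log2 changes changed direction under any alternative, and 0 genes were called higher under any of them. In colonocytes 6 genes were called, against 1 without the low-count filter and 0 to 6 when 1 library was left out. In undivided epithelial cells 5 genes were called, against 3 with stricter cells (the same classes, from 500 genes up and with no more than 10% mitochondrial counts), 1 with cells thinned to 1000 counts, 2 with the smaller of its clusters alone and 3 to 5 when 1 library was left out. In goblet cells 1 gene was called, against 3 without the filter, 2 at Leiden resolution 2.0 and 0 after thinning. Among the colonocyte calls, Tap1 and Tapbp were lost with stricter cells (edgeR adjusted p = 0.087 and 0.054) and after thinning (0.77 and 0.45). The 10% limit of the stricter cells lies below the median mitochondrial share of colonocytes in all 4 libraries. In the other classes 4 were called, against 7 with doublets kept, 2 with stricter cells, 2 after thinning and 1 to 13 when 1 library was left out. Of the differences between colonocytes and other classes 17 were called, against 11 without the library block and 9 with stricter cells. The share of Psmb10 in its pair with Psmb7 in goblet cells was 2.99 points lower in CCl4, and 1.13 points higher after thinning. The cause of these shifts was not tested. The labels do not say that the library numbers pair the libraries, and the deviations of same-numbered libraries correlated at 0.005 to 0.19 over the classes. With the replicate block 7, 5, 3 and 10 genes were called in colonocytes, undivided epithelial, goblet and the other classes. Tap1 in undivided epithelial cells got no adjusted p from DESeq2, and B cells formed no class when the genes and lists were left out of clustering and were too few with stricter cells. Depth limits the rare genes most: Nlrc5 and Tap1 could not be tested in 6 combinations of a gene and a class.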

Other observations

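The unnamed cluster of 603 cells, with high markers of both macrophages and dendritic cells, had the highest level of Psmb8 and entered no comparison. Psmb8 had 761 and 830.5 CPM in its CCl4 cells and 797 and 959 CPM in its control cells, so the groups overlapped. Tap1 had 119.8 and 113 CPM in CCl4 cells against 117 and 107 CPM in control cells, and B2m 1606 and 1884 against 1996 and 1692 CPM. Of the 10 genes, Psmb9, Psmb10, Psme2 and Nlrc5 lay below in CCl4 without overlap, with 330.3 and 358 against 377 and 403 CPM for Psmb9, 134 and 145 against 237 and 166 CPM for Psmb10 and 459 and 516 against 533 and 699 CPM for Psme2. Nlrc5 rested on 10 and 6 against 6 and 11 counts, too few to show a difference. The share of all genes that lay below without overlap in this cluster was not counted. Among the tested classes that share ran from 18.5% in lymphatic endothelial cells to 21.9% in plasma cells and undivided epithelial cells. Whether the 10 genes lean lower in this cluster more than all genes do was not tested.

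Outside the epithelium, further genes of the surrounding lists were called, and those reported are named after their values were seen. H2-Ab1 had 22.5 and 24.2 CPM in CCl4 endothelial cells and 55.2 and 42.2 CPM in control ones (log2 change -1.06, SE 0.18, edgeR adjusted p = 0.00366). The chaperones Calr and Canx were lower in CCl4 fibroblasts, by -0.38 and -0.33 on the log2 scale (adjusted p = 0.0279 and 0.0485). The class I heavy chain H2-Q7 was lower in CCl4 fibroblasts (log2 change -0.87, adjusted p = 0.0275) and plasma cells (log2 change -0.60, adjusted p = 0.0381), with counts that near copies may share. Irf1 in macrophages and monocytes had 119 and 123 CPM in CCl4 libraries and 177 and 176 CPM in control libraries (log2 change -0.54, SE 0.12, edgeR adjusted p = 0.0227). H2-Eb1, a class II chain, moved the other way in plasma cells, with 125 and 146 CPM in CCl4 libraries and 85.7 and 85.4 CPM in control libraries (log2 change 0.66, SE 0.13, adjusted p = 0.0326).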
